A study of Mus musculus with 21 samples.

Results

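The genes described here are 9 components and responders of the Sonic hedgehog (Shh) pathway, Ptch1, Gli1, Gli2, Gli3, Smo, Hhip, Boc, Cdon and Gas1, taken by name from the 55400 genes counted. The study followed wild-type C57BL/6 mouse embryonic stem cells (ESCs), grown on fibroblast feeders, as they were directed in embryoid bodies to become motor neurons (MNs), and asked what inhibition of the histone demethylase Kdm6b does at each stage. PolyA RNA was sequenced in 7 groups of 3 biological replicates. Untreated cells were collected at D4 (day 4), D4H8 (8 h later), D5 and D6. GSKJ4, an inhibitor of Kdm6 demethylases whose dose is not given in the sources used here, was present for the day before collection at D4H8, D5 or D6. Every group had received retinoic acid at 1 µM and the hedgehog agonist SAG at 0.5 µM from D2. DAPT, a Notch pathway inhibitor, was added at 5 µM to that medium at D4 and to the basal ADFNK medium at D5. The protocol names neither retinoic acid nor SAG in the D5 medium. Stage and medium change together at the first and last steps between these samples. Between D4H8 and D5 the protocol names no change of medium. It does not say whether the D5 cells were collected before the change at D5. The step from D4 to D4H8 cannot be told apart from the addition of DAPT. Nor can the step from D5 to D6 be told apart from the loss of the agonist. The comparison of D6 with D4 takes in both changes of medium.

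Hedgehog signalling patterns the ventral neural tube, where a graded Shh signal from notochord and floor plate sets the identities of progenitors, those of MNs among them. Without ligand, the receptor Ptch1 holds the transducer Smo inactive and Gli3 is processed to a repressor. With ligand, or with SAG bound directly to Smo, Smo acts at the primary cilium and Gli2 and Gli3 become activators, which then raise Gli1, Ptch1 and Hhip. Ptch1 and Hhip bind ligand and limit the response, whereas Boc, Cdon and Gas1 are co-receptors for Shh that are known to be held down by the signal in the neural tube.

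All 9 genes passed the filter on low counts in every comparison, with 20 to 24152 reads per gene and library. Total counts ran from 14982115 to 34383842 per library, with a median of 16238435. The labelled cell type is "Differentiated motor neuron", and MN markers were low at the first stage: the summed level of 7 MN markers was 7.60 to 19.2 FPKM (fragments scaled to exonic length and library total) at D4 and 410 to 470.3 FPKM at D6. The libraries numbered replicate 1 had the lowest summed level of 6 pluripotency markers in every group. In replicate 2 of the D5 cells with GSKJ4, 39381 genes had no read, whereas the remaining 20 libraries each lacked reads for 29339 to 32805 genes. Cultures were sequenced in bulk, so fewer cells of a type and less RNA per cell cannot be told apart in any value below.

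In the untreated cells the receptor gene Ptch1 was the most abundant of the 9 at D4 and D4H8, followed by Smo and Gas1. Ptch1 had 34.0, 34.6 and 49.3 FPKM in the 3 libraries at D4, 49.5, 40.4 and 50.9 at D4H8, 19.1, 20.4 and 21.8 at D5 and 11.03, 12.8 and 13.7 at D6. The D4 and D4H8 libraries overlapped, and every D5 library lay below both and above every D6 library. Smo, the transducer, had 24.7, 29.8 and 32.5 FPKM at D4, 34.0, 32.8 and 31.3 at D4H8, 17.1, 16.6 and 18.8 at D5 and 5.94, 8.26 and 9.67 at D6, again with no overlap between D4H8, D5 and D6. Boc, the least abundant gene at D4 and D4H8, kept the same order, from 2.46, 2.29 and 3.45 FPKM at D4 and 2.48, 2.67 and 3.16 at D4H8 to 0.93, 1.48 and 1.41 at D5 and 0.43, 0.55 and 0.76 at D6.

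**Figure D1:**
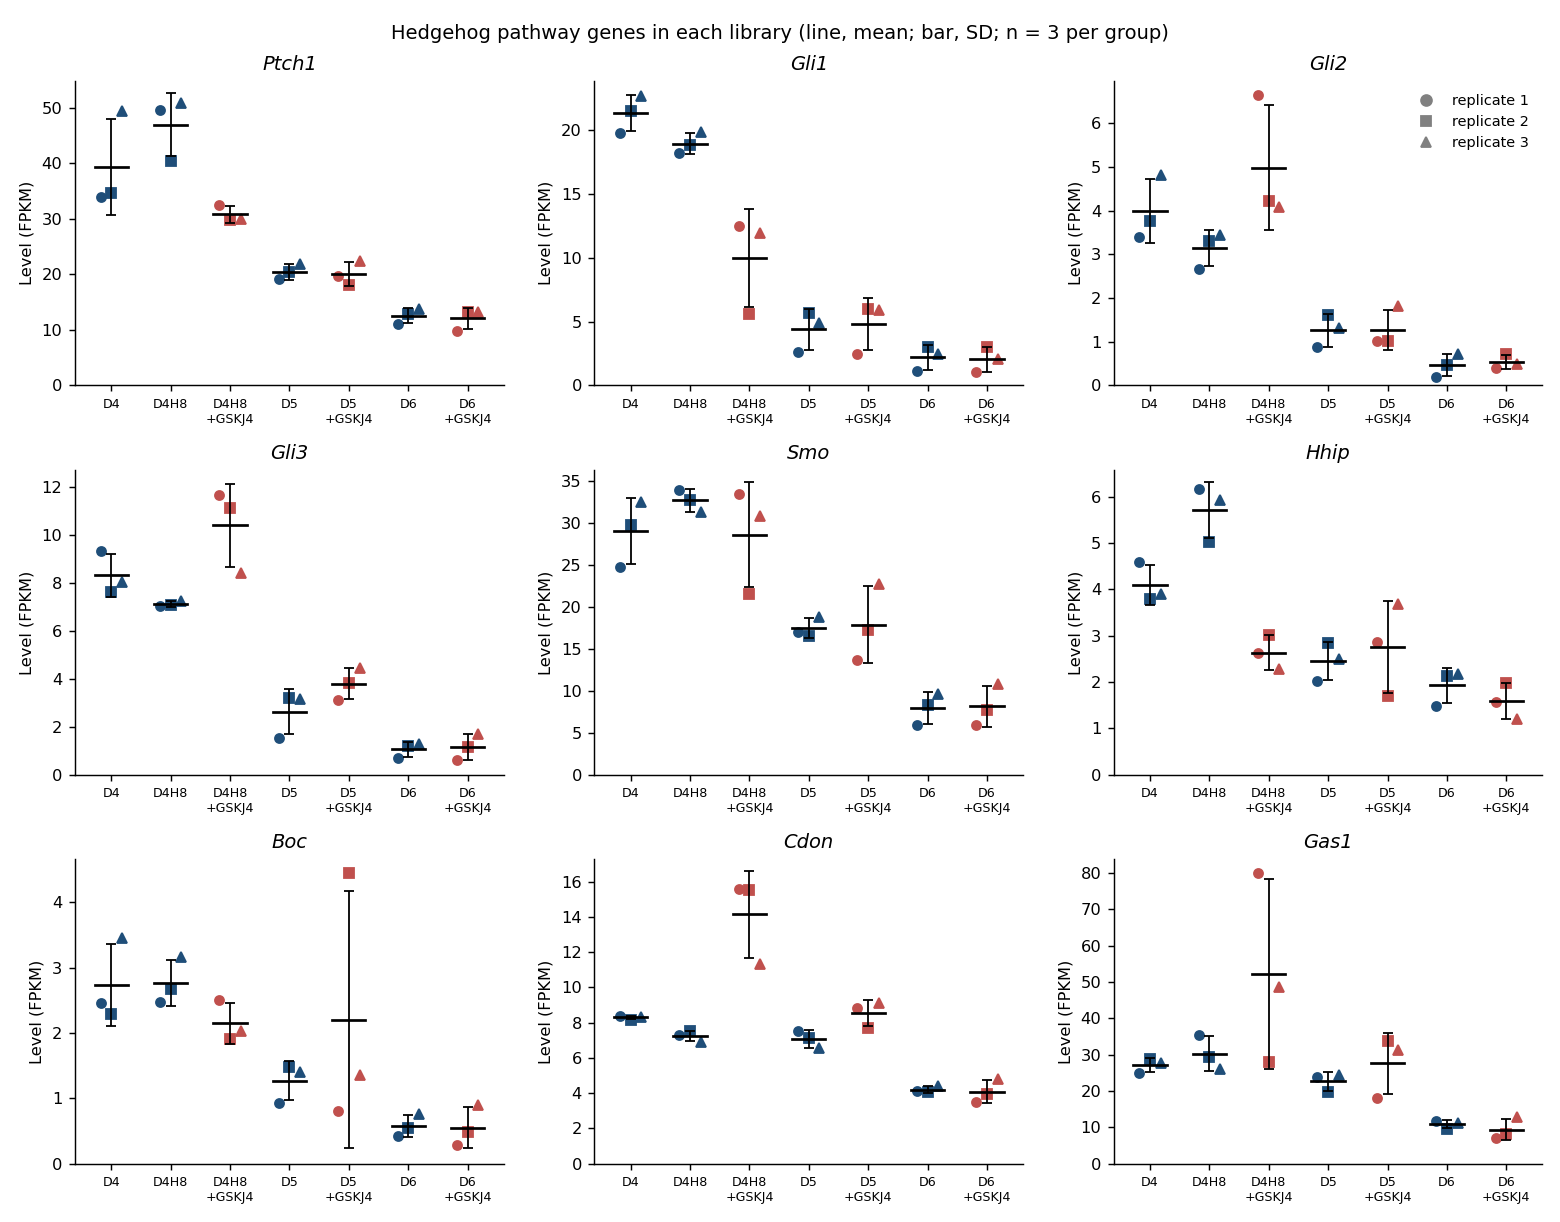
Level in FPKM (vertical axis, linear from 0) of each of the 9 hedgehog genes in the 21 libraries, by group on the horizontal axis, with untreated libraries in blue and GSKJ4 libraries in red. Black lines are the means and bars the SD of 3 libraries. In untreated cells all 9 genes are lowest at D6, and at D4H8 the GSKJ4 libraries lie below the untreated ones for Gli1, Hhip and Ptch1 and above them for Cdon.

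The genes lie apart in the genome. In GENCODE M21 on GRCm38, the build of the authors' mm10 alignment, Ptch1 lies at chr13:63508328-63573598 on the reverse strand, Hhip at chr8:79965851-80058006 (reverse), Gli2 at chr1:118834132-119053619 (reverse) and Smo at chr6:29735503-29761365 (forward). Gli1 is at chr10:127329882-127341974 (reverse), Gli3 at chr13:15463235-15730026 (forward), Boc at chr16:44485049-44558897 (reverse), Cdon at chr9:35421128-35507652 (forward) and Gas1 at chr13:60174405-60177365 (reverse). Exons of Gli1 overlap those of Arhgap9 and Gm47200 on the other strand, which held 648 and 28 reads over the 21 libraries against 17754 for Gli1. Gas1 shares exonic bases with the antisense gene Gm48488 (729 reads against 28467) and Gli3 with Gm6556 (225 against 18034), and the counting strand is not given in the sources used here.

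RefSeq promoter sequences on GRCm38.p6 were at hand for 7 of the 9 genes. The 150 bases before the RefSeq start site are printed for the 4 genes whose window met no annotated exon. These 4 genes fell between D4H8 and D5. So did Gli3, whose window met an exon, and Gli1 and Boc, for which no promoter sequence was at hand. Capitals mark each CG pair, the dinucleotide of CpG islands.
Ptch1, chr13:63565736-63565885 on the reverse strand: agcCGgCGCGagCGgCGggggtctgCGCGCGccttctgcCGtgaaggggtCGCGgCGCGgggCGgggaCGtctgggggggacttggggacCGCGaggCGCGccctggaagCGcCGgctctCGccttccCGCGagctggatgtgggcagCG
Hhip, chr8:80058009-80058158 on the reverse strand: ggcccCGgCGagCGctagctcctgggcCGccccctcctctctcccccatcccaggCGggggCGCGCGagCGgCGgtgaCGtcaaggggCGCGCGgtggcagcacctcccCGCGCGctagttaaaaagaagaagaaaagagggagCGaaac
Gli2, chr1:119053620-119053769 on the reverse strand: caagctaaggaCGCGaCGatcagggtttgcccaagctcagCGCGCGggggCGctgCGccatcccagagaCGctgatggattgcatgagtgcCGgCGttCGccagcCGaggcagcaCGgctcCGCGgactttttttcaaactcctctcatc
Smo, chr6:29735347-29735496 on the forward strand: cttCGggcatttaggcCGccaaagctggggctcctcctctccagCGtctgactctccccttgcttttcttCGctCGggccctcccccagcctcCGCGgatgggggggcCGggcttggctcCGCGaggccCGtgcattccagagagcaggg
In the 250 bases before the start, Ptch1 had 41 CG pairs, Gli3 34, Hhip 28, Gli2 22, Smo 15, Gas1 10 and Cdon 1, where the median of all 32851 promoters was 6. For Ptch1, 98.9% of all promoters held fewer, and for Cdon 7.87%. The RefSeq starts of Ptch1, Gli3 and Cdon lie inside the GENCODE gene bounds, which take in start sites further upstream. The core of the GLI binding motif, GACCACCCA, searched on both strands of the 300-base window, was in none of the 7 promoters and in 0.253% of all, and its shorter part CCACCCA, which overlaps it, was likewise in none of the 7 and in 9.30% of all.

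The first comparison asked how the genes moved over the 8 h from D4 to D4H8, when DAPT had been added and agonist was still present. None of the 9 genes passed the test by edgeR (0 of 9, with 4.38% of all 17519 tested genes called in either direction), and DESeq2 likewise called 0. An unadjusted p under 0.05 by edgeR was found for 2 of the 9 and for 2894 of the 17519. These 2 were Hhip, with 4.59, 3.80 and 3.90 FPKM at D4 and 6.17, 5.02 and 5.93 at D4H8 (log2 fold change 0.42 ± 0.17, edgeR adjusted p = 0.236), and Cdon, with 8.36, 8.18 and 8.35 FPKM at D4 and 7.30, 7.51 and 6.92 at D4H8 (-0.25 ± 0.11, edgeR adjusted p = 0.284). For both, every D4H8 library lay on one side of the D4 libraries in FPKM. In CPM (counts scaled to the library total with TMM factors) Hhip overlapped, and neither difference passed after adjustment. Gli3 was also lower without overlap in FPKM and CPM, and Gli1 and Gli2 in CPM only. The share of all tested genes without overlap is not given here for this step.

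Between D4H8 and D5 the targets, the transducer, the effectors and the co-receptor Boc fell. They made up 7 of the 9 genes, where 27.7% of all tested genes were called in either direction and 10.5% were called lower. The median log2 fold change was -1.20 over the 9 genes and 0.01 over all genes tested. Gli1, the activator that is itself a target, showed the greatest change, from 18.2, 18.8 and 19.8 FPKM at D4H8 to 2.58, 5.70 and 4.88 at D5 (log2 fold change -2.11 ± 0.28, edgeR adjusted p = 8.19e-05). The other known targets fell too, Hhip by 1.22 ± 0.18, edgeR adjusted p = 0.000170, and Ptch1 by 1.20 ± 0.14, edgeR adjusted p = 3.00e-05, on the log2 scale. Hhip had 2.01, 2.83 and 2.49 FPKM in the D5 libraries, each below the lowest D4H8 library. The effector Gli2 went from 2.67, 3.30 and 3.45 to 0.87, 1.61 and 1.31 FPKM (log2 fold change -1.31 ± 0.30, edgeR adjusted p = 0.00500), and Gli3 from 7.04, 7.10 and 7.25 to 1.53, 3.20 and 3.16 (-1.44 ± 0.25, edgeR adjusted p = 0.000641). Smo changed by -0.90 ± 0.14 and the co-receptor Boc by -1.11 ± 0.24 on the log2 scale (edgeR adjusted p = 0.000247 and 0.00326).

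The other two co-receptors did not pass. Cdon had 7.55, 7.16 and 6.55 FPKM at D5, around the values of the D4H8 libraries, and its log2 fold change was -0.03 ± 0.11, edgeR adjusted p = 0.890. Gas1 went from 35.4, 29.2 and 26.0 to 23.8, 19.8 and 24.4 FPKM, without overlap, and its change of -0.42 ± 0.15 missed the threshold (edgeR adjusted p = 0.0509). With the replicate number as a block, taken as pairing at this step, Gas1 passed (edgeR adjusted p = 0.0287), and DESeq2 also called it (adjusted p = 0.0378). Upper-quartile and RLE scaling and both other filters called Gas1 too (edgeR adjusted p = 0.0253 to 0.0494). One fit over 21 libraries did not (edgeR adjusted p = 0.308). Of all 14 alternatives, those leaving out libraries included, 7 called Gas1.

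At the next step, from D5 to D6, 8 of the 9 genes fell further, with 34.3% of all tested genes called in either direction and 15.1% called lower. Gli2 dropped to 0.20, 0.48 and 0.71 FPKM at D6 (log2 fold change -1.36 ± 0.32, edgeR adjusted p = 0.00554) and Gli3 to 0.68, 1.20 and 1.28 FPKM (-1.21 ± 0.26, edgeR adjusted p = 0.00255). For both effectors these values were near those of the step before. Smo, at -1.03 ± 0.14, and Boc, at -1.03 ± 0.25, had log2 fold changes close to their earlier ones (edgeR adjusted p = 9.98e-05 and 0.00683). Cdon and Gas1 were now lower too, Cdon with 4.10, 4.06 and 4.43 FPKM (log2 fold change -0.64 ± 0.11, edgeR adjusted p = 0.000786) and Gas1 with 11.9, 9.59 and 11.3 FPKM (-0.94 ± 0.15, edgeR adjusted p = 0.000389). The target genes had smaller log2 fold changes than at the step before, a difference that was not tested: Ptch1 by -0.59 ± 0.14, edgeR adjusted p = 0.00541, and Gli1 by -0.88 ± 0.29, edgeR adjusted p = 0.0292. Gli1 had 1.10, 3.04 and 2.48 FPKM at D6, and these libraries overlapped the D5 libraries, although D6 was lower than D5 within each of the 3 replicate numbers. Its call was lost without D5 replicate 2, D5 replicate 3 or D6 replicate 1 (log2 fold change -0.67, -0.83 and -0.58). Hhip, with 1.48, 2.12 and 2.17 FPKM at D6, did not pass (log2 fold change -0.24 ± 0.18, edgeR adjusted p = 0.334), and its D6 and D5 libraries overlapped. Hhip too was lower at D6 within each replicate number, and did not pass with the number as a block (adjusted p = 0.349).

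**Figure D2:**
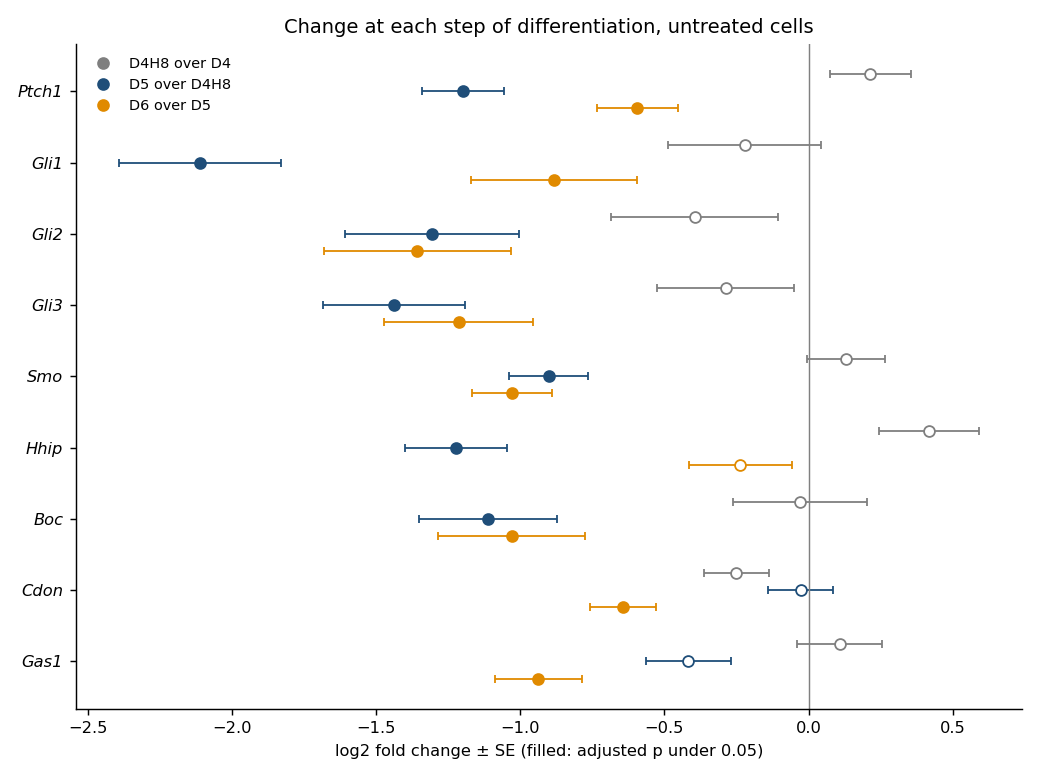
Log2 fold change in counts (horizontal axis) of the 9 genes at each of the 3 successive steps in untreated cells, with the SE as a bar and calls filled. Nothing is called from D4 to D4H8, 7 genes fall from D4H8 to D5 with Gli1 furthest at -2.11, and 8 fall from D5 to D6.

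Over the whole interval, D6 against D4, all 9 genes fell, where 63.9% of all tested genes were called in either direction and 31% were called lower. The median log2 fold change was -1.80 over the 9 genes and -0.04 over all tested genes. The 3 Gli genes had the largest log2 fold changes of the 9, with Gli1 at -3.22 ± 0.30, Gli2 at -3.06 ± 0.33 and Gli3 at -2.94 ± 0.26, and Cdon and Hhip the smallest, at -0.92 ± 0.11 and -1.04 ± 0.18. In CPM the D6 libraries lay below the D4 libraries for each of the 9 genes. The share of all tested genes without overlap is not given here for this interval. Cell-cycle genes fell as well: the summed level of 7 cell-cycle genes was 695 to 759 FPKM at D4, 647 to 664 at D4H8, 200 to 317 at D5 and 56.8 to 146 at D6. All 7 fell from D4H8 to D5. The summed level of 6 pan-neuronal markers rose from 31.2 to 63.9 FPKM at D4 to 1792 to 2080 FPKM at D6, and all 6 rose. The part of these changes in cell make-up in the hedgehog values was not tested.

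The comparison with GSKJ4 asked what inhibition of Kdm6 demethylases does to expression at each stage. At D4H8, Hhip was lower and Cdon was higher with GSKJ4, the 2 of the 9 genes that passed, where 3.96% of the 16269 tested genes were called. Hhip had 2.62, 3.01 and 2.27 FPKM with GSKJ4 against 6.17, 5.02 and 5.93 without (log2 fold change -1.14 ± 0.22, edgeR adjusted p = 0.0275). Every GSKJ4 library lay below every untreated one. Cdon had 15.6, 15.6 and 11.3 FPKM with GSKJ4 against 7.30, 7.51 and 6.92 without (0.94 ± 0.20, edgeR adjusted p = 0.0387), and here every GSKJ4 library lay above.

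The other 2 target genes were also at lower values with GSKJ4 at D4H8. Gli1 had 12.4, 5.57 and 11.9 FPKM against 18.2, 18.8 and 19.8 (log2 fold change -0.98 ± 0.25, edgeR adjusted p = 0.0603), with replicate 2 lowest. Ptch1 had 32.5, 29.8 and 30.0 FPKM against 49.5, 40.4 and 50.9 (-0.64 ± 0.18, edgeR adjusted p = 0.0718). In neither gene did the groups overlap. Both missed the threshold by edgeR and passed it by DESeq2 (adjusted p = 0.00717 and 0.0105).

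Among the effectors, Gli2 had 6.65, 4.23 and 4.09 FPKM with GSKJ4 against 2.67, 3.30 and 3.45 without, a log2 difference of 0.64 ± 0.24, edgeR adjusted p = 0.136. Gli3 had 11.7, 11.1 and 8.44 FPKM against 7.04, 7.10 and 7.25 (0.52 ± 0.19, edgeR adjusted p = 0.135). The GSKJ4 libraries lay above the untreated ones for both genes, and neither passed. Gas1, a co-receptor that is also known as a growth-arrest gene, ranged widely with GSKJ4, at 80.0, 28.1 and 48.7 FPKM against 35.4, 29.2 and 26.0 (0.73 ± 0.31, edgeR adjusted p = 0.186). Replicates 1 and 3 lay above all untreated libraries and replicate 2 among them. Smo, with 33.5, 21.6 and 30.8 FPKM, and Boc, with 2.51, 1.91 and 2.03 FPKM, overlapped the untreated libraries in FPKM (log2 differences -0.24 ± 0.18 and -0.40 ± 0.24, edgeR adjusted p = 0.432 and 0.324).

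In CPM the groups did not overlap for 7 of the 9 genes, 4 of them lower and 3 higher with GSKJ4, beside 33.4% of all tested genes. The median log2 difference over the 9 genes was -0.24 and over all tested genes 0.02. The number of calls among the 9 depended on single libraries. It was 0 without any one of the 3 untreated D4H8 libraries or without GSKJ4 replicate 1, 1 (Cdon) without GSKJ4 replicate 3, and 5 without GSKJ4 replicate 2, when Gli1, Ptch1 and Gas1 joined Hhip and Cdon. Calls over all tested genes moved as well, from 644 to 43, 50 and 47 without untreated replicate 1, 2 or 3. Without GSKJ4 replicate 1, 2 or 3 they were 541, 1746 and 450. Over these fits the log2 difference of Hhip stayed between -1.32 and -1.01 and that of Cdon between 0.80 and 1.11.

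**Figure D3:**
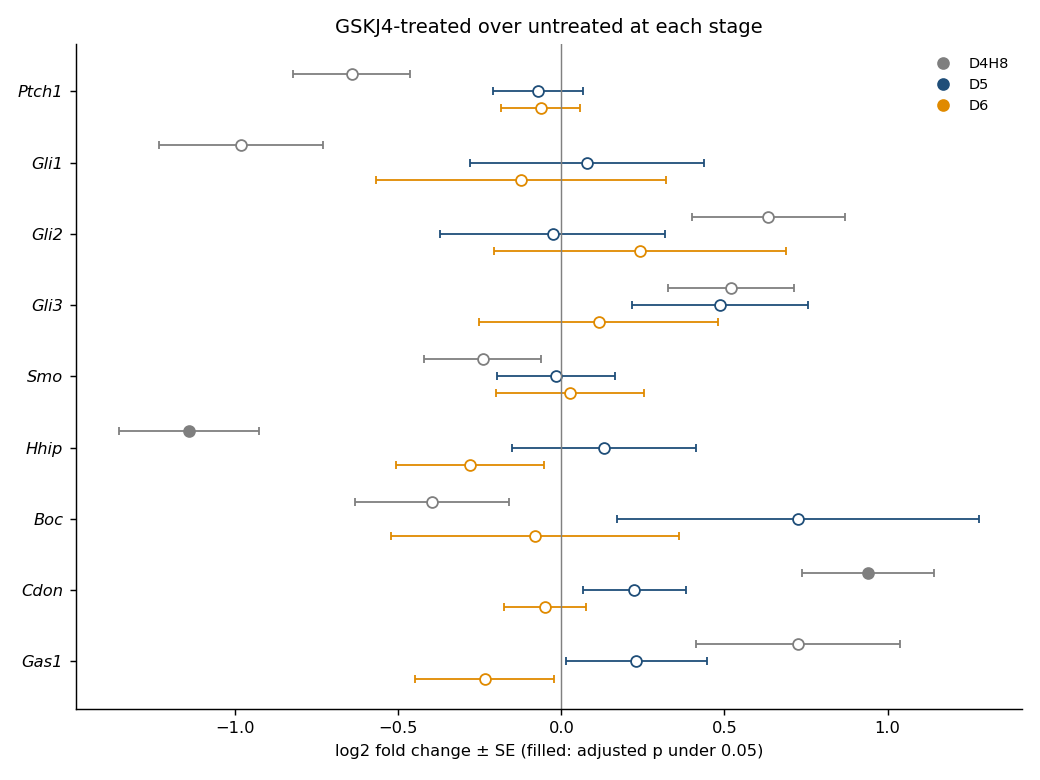
Log2 fold change of GSKJ4-treated over untreated cells (horizontal axis) for each of the 9 genes at D4H8, D5 and D6, with the SE as a bar and calls filled. Only Hhip and Cdon at D4H8 are filled, at -1.14 and 0.94, and the D5 and D6 points lie nearer 0 for Ptch1, Gli1, Hhip and Cdon.

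Markers of cell types were followed at D4H8 as well, where 3.96% of all tested genes were called in either direction and 1.85% were called lower. The summed level of 7 MN markers was 11.7 to 27.2 FPKM with GSKJ4 and 55.3 to 60.2 FPKM without, 3 of the 6 tested being lower. The sum of 6 neural progenitor markers, Olig2 among them, was 52.0 to 95.3 FPKM with GSKJ4 and 174 to 227 FPKM without, 2 of the 6 being lower. Cell-cycle genes summed to 380 to 554 FPKM with GSKJ4 and 647 to 664 FPKM without, with 1 of 7 called, and 6 pluripotency markers to 109 to 246 FPKM with GSKJ4 and 56.0 to 241 FPKM without, with 0 of 6 called by edgeR. The 8 genes of fibroblasts, the feeder cell type, summed to 14.8 to 31.6 FPKM with GSKJ4 and 8.62 to 16.9 FPKM without, with 0 of 7 tested called by edgeR. The 6 glial markers summed to 6.13 to 8.33 FPKM with GSKJ4 and 10.3 to 13.2 FPKM without, and 2 of the 4 tested were lower, Slc1a3 and Fabp7, which radial glial progenitors are known to express as well. Pan-neuronal markers summed to 72.6 to 208 FPKM with GSKJ4 and 171 to 338 FPKM without, with 0 of 6 called by edgeR. Of the tested markers of floor plate (5), V2 and V3 interneurons (2) and endoderm (4), 0 were called by edgeR. The part of these cell types in the differences of Hhip, Gli1 and Cdon was not tested.

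Ordered by their means over all 7 groups, the genes gave different orders. For Ptch1 the mean was 46.9 ± 5.70 FPKM (SD, n = 3 here and below) at D4H8, 39.3 ± 8.68 at D4, 30.8 ± 1.51 with GSKJ4 at D4H8, 20.4 ± 1.38 and 20.0 ± 2.15 at D5 without and with GSKJ4, and 12.5 ± 1.37 and 12.1 ± 1.95 at D6. In this order D4H8 and D4, both D5 groups, and both D6 groups overlapped, and the other neighbours did not. For Gli1 the means ran from 21.3 ± 1.43 FPKM at D4 and 18.9 ± 0.831 at D4H8 to 9.98 ± 3.83 with GSKJ4 at D4H8, 4.39 ± 1.62 at D5 and 2.21 ± 0.998 at D6, and the treated D4H8 libraries overlapped the treated D5 ones. Hhip with GSKJ4 at D4H8, at 2.63 ± 0.370 FPKM, was close to untreated D5 at 2.44 ± 0.412, and these libraries overlapped. Cdon had another order, with GSKJ4 at D4H8 first at 14.2 ± 2.46 FPKM and above every other library, against 8.30 ± 0.101 at D4 and 7.24 ± 0.299 at D4H8.

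The ratio of Gli1 to Gli3 within a library sets the activator that is a target against the effector that is processed to a repressor. It was chosen after the values were seen and is given without a test. The ratio of FPKM values was 2.12 to 2.83 at D4, 2.58 to 2.74 at D4H8, 1.54 to 1.78 at D5 and 1.62 to 2.53 at D6 in untreated cells. With GSKJ4 it was 0.50 to 1.41 at D4H8, 0.80 to 1.56 at D5 and 1.24 to 2.61 at D6. The treated D4H8 libraries lay apart from the untreated ones, by a mean of 0.99 ± 0.46 against 2.65 ± 0.08 (SD, n = 3), while at D6 the groups overlapped.

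**Figure D4:**
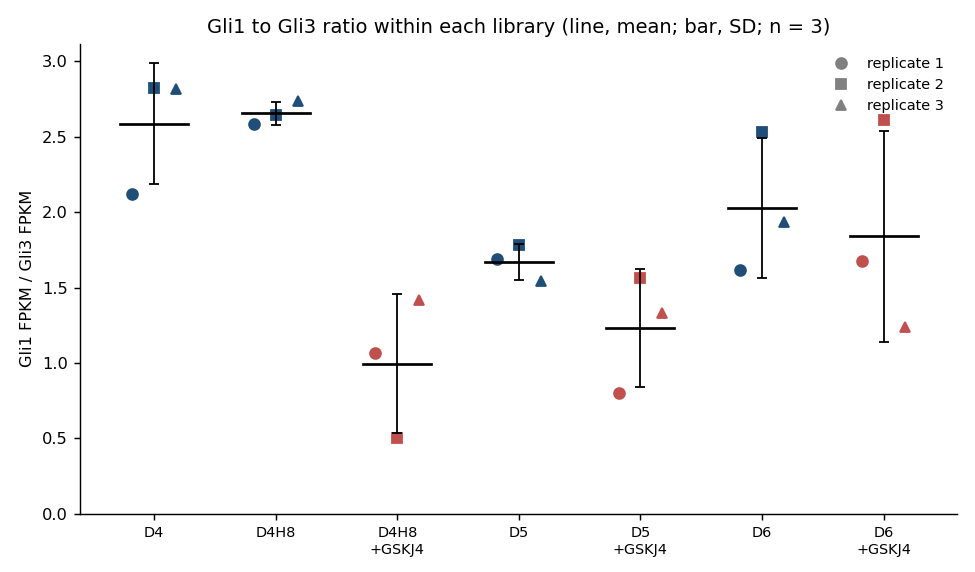
Ratio of the Gli1 level to the Gli3 level in FPKM (vertical axis, linear from 0) within each of the 21 libraries, by group, with untreated libraries in blue and GSKJ4 libraries in red; lines are means and bars the SD of 3 libraries. The 3 GSKJ4 libraries at D4H8 lie at 0.50 to 1.41 and the 3 untreated ones at 2.58 to 2.74.

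At D5 none of the 9 genes passed with GSKJ4 (0 of 9 by edgeR, 0 with an unadjusted p under 0.05 and 0 by DESeq2), and 0.00613% of all 16309 tested genes were called. Log2 differences ran from -0.07 ± 0.14 for Ptch1 to 0.73 ± 0.56 for Boc. Ptch1 had 19.7, 18.1 and 22.4 FPKM with GSKJ4, Gli1 2.49, 6.00 and 5.92 and Hhip 2.87, 1.70 and 3.69, each spanning the untreated values. Boc had 0.80, 4.45 and 1.36 FPKM, and its positive difference rested on replicate 2, the library with the most genes at 0: without it the difference was -0.28. Cdon had 8.83, 7.69 and 9.11 FPKM with GSKJ4 against 7.55, 7.16 and 6.55 without, all 3 above the untreated libraries in FPKM though not in CPM, and it did not pass.

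At D6, again, 0 of 9 passed by edgeR and by DESeq2 and 0 had an unadjusted p under 0.05, where 0% of all 16301 tested genes were called. Log2 differences ran from -0.28 ± 0.23 for Hhip, with 1.57, 1.98 and 1.20 FPKM, to 0.24 ± 0.45 for Gli2, with 0.40, 0.72 and 0.50 FPKM. For Ptch1 the D6 libraries held 9.82, 13.1 and 13.2 FPKM with GSKJ4 and for Gli1 1.04, 3.00 and 2.08 FPKM, both overlapping the untreated ones. The replicate numbers were taken as pairing the D6 libraries, and with the number as a block 257 genes were called but 0 of the 9.

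Whether the GSKJ4 effect itself differed between stages was tested by interaction on 18 libraries. None of the 9 genes passed by edgeR for D5 against D4H8, with 0.249% of all 18103 tested genes called, for D6 against D4H8, with 0.735%, or for D6 against D5, with 0%. Unadjusted p values under 0.05 by edgeR were found for 3, 4 and 0 of the 9, and for 1817, 2477 and 358 of the 18103 tested genes. DESeq2 called 0, 1 and 0 of the 9. The gene that DESeq2 called was Cdon, whose GSKJ4 effect at D6 was below that at D4H8 by 0.98 ± 0.25 on the log2 scale (edgeR adjusted p = 0.0766, DESeq2 adjusted p = 0.00535). For Hhip the effect at D5 exceeded that at D4H8 by 1.27 ± 0.37, edgeR adjusted p = 0.221, and for Gli1 by 1.05 ± 0.54, edgeR adjusted p = 0.541. Other settings of edgeR called Cdon for D6 against D4H8 (upper-quartile scaling, at least 10 counts in every library and one fit over 21 libraries among them) and Hhip for D5 against D4H8 (no filter on low counts), so the calls of these 2 differences depended on the setting.

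The rest of the pathway was followed with 4 lists. Among 9 genes for ligands and their release, 8 were tested, and 6 rose and none fell from D4 to D6, where 32.9% of all tested genes were called higher and 31% lower. Shh, the ligand made by floor plate and by some MNs, went from 0.140 to 0.430 FPKM at D4 to 2.96 to 4.69 at D5 and 14.5 to 23.1 at D6 (D6 over D4, log2 fold change 6.33 ± 0.38, edgeR adjusted p = 6.49e-09). Disp2, a relative of the ligand exporter Disp1, went from 0.0600 to 0.0800 FPKM at D4 to 21.3 to 29.8 at D6 (8.60 ± 0.34, edgeR adjusted p = 1.97e-10), and Scube1, of a family that carries secreted ligand, rose by 2.84 ± 0.21, edgeR adjusted p = 5.83e-08, on the log2 scale. The median log2 fold change over the 8 was 0.74. The 6 markers of floor plate, Shh among them, summed to 29.5 to 39.0 FPKM at D4 and 72.7 to 112 FPKM at D6. Of the 6, 5 rose, and Foxa2 did not pass (edgeR adjusted p = 0.702). The part of floor plate in the rise of Shh was not tested. None of the 8 was called with GSKJ4 at D4H8 by edgeR. Of the 8, 4 had an unadjusted p under 0.05 by edgeR, as had 4085 of all 16269 tested genes.

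Of 28 genes for signal transduction and the cilium, 15 rose and 7 fell from D4 to D6, beside 63.9% of all tested genes called in either direction. The median log2 fold change was 0.33. The endocytic receptor Lrp2, which binds Shh, fell by 3.65 ± 0.36, edgeR adjusted p = 9.97e-07, and the ciliary Smo partner Evc2 by 2.07 ± 0.20, edgeR adjusted p = 8.42e-07. Stk36, the mouse counterpart of the fly kinase Fused, rose by 2.35 ± 0.22, edgeR adjusted p = 5.24e-07. With GSKJ4 at D4H8, 1 of the 28 was called higher and 1 lower, against 3.96% of all tested genes called in either direction. The higher one, Lrp2, had 8.79 to 11.7 FPKM with GSKJ4 and 2.84 to 5.23 without (log2 fold change 1.33 ± 0.26, edgeR adjusted p = 0.0291). Its call was lost without any one untreated D4H8 library.

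The 10 genes that hedgehog signalling is known to induce, mainly transcription factors of ventral progenitors, were the list with the most calls under GSKJ4 at D4H8. Of the 10, 6 were lower and none higher, where 1.85% of all tested genes were called lower. The median log2 difference of the list was -2.10. Olig2, the factor that defines MN progenitors, had 1.85 to 10.8 FPKM with GSKJ4 and 79.4 to 124 without (-3.91 ± 0.51, edgeR adjusted p = 0.0103). Its neighbour Olig1 changed by -4.12 ± 0.41, edgeR adjusted p = 0.00300, and Nkx2-9 by -2.48 ± 0.41, edgeR adjusted p = 0.0202. Without any one untreated D4H8 library, or without GSKJ4 replicate 3, 3 of the 10 were called. Over all tested genes 43 to 50 and 450 were called in these fits. In untreated cells 4 of the 10 rose and 1 fell from D4 to D4H8, where 4.06% of all tested genes were called higher. From D4H8 to D5, 8 fell, where 10.5% of all were called lower. From D5 to D6, 2 rose and 5 fell, where 19.2% of all were called higher and 15.1% lower. Nkx2-2 and Nkx6-1 were among those that rose at D4H8 (log2 fold change 2.02 ± 0.41 and 1.35 ± 0.29, edgeR adjusted p = 0.0105 and 0.0165), a step at which none of Ptch1, Gli1 and Hhip passed. Without D4 replicate 2 or D4H8 replicate 1, 0 of the 10 were called at that step by edgeR, beside 487 and 350 of all tested genes.

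Of 8 genes that the signal is known to repress, 7 were tested over the stages and 6 with GSKJ4 at D4H8. From D4 to D6, 4 fell and 1 rose, so that 5 of 7 were called beside 63.9% of all tested genes. Msx1 and Pax6 changed by -6.77 ± 0.69 and -4.89 ± 0.34, and Irx3 by 1.69 ± 0.19 on the log2 scale (edgeR adjusted p = 1.27e-06, 2.84e-08 and 3.89e-06). With GSKJ4 at D4H8, 1 was lower and none was higher, with a median of -0.89. The one was Dbx1, at a mean of 39.5 counts, and it is named because it was the only one called. The list had 0 calls without any one untreated D4H8 library, without GSKJ4 replicate 3 or with at least 10 counts in every library, and 3 without GSKJ4 replicate 2.

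**Figure D5:**
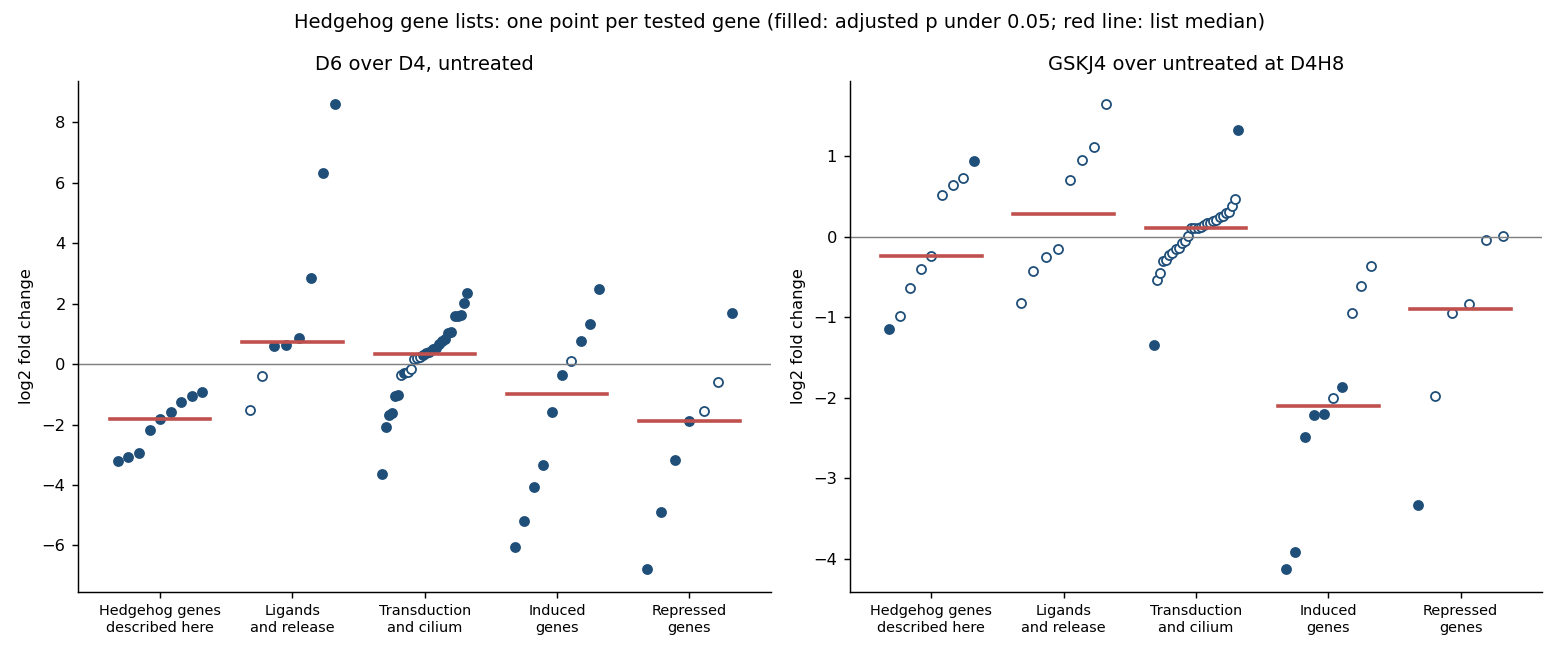
Log2 fold change (vertical axis) of each tested gene of the 9 described here and of the 4 hedgehog lists, from D4 to D6 in untreated cells (left) and with GSKJ4 at D4H8 (right). Filled points are called and red lines are list medians, which on the right lie at -2.10 for induced genes, -0.24 for the 9 genes and 0.11 for transduction genes.

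The genes whose level ran most closely with Ptch1 over the 21 libraries, by Pearson's r of log2 CPM among 11008 candidates, were Ttll4 (0.977), Hjurp (0.972), Skp2 (0.969), Zbtb16 (0.969) and Psmd11 (0.969). For Gli1 they were Tk1 (0.985), Fubp3 (0.976), Plk1 (0.976), Dut (0.976) and Nup85 (0.974). These libraries share the course from D4 to D6, so the values describe a common time course over 7 groups and carry no test.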

How the data were processed

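The authors deposited a table of read counts per gene and a table of FPKM for the same 21 libraries. Per the labels and methods, Fastp trimmed the reads, HISAT2 placed them on mm10, SAMtools handled the alignments and HTSeq counted them, and the authors compared groups with DESeq2. The deposited FPKM values were the counts scaled to exonic length and to the total count of each library, and recomputed FPKM differed by at most 0.005. No per-sample column was left unused. Of the gene identifiers 55140 matched a symbol and 260 did not.

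Tests used edgeR 4.0.16 (R 4.3.3) on the counts: quasi-likelihood F test, TMM scaling, the filterByExpr filter (minimum count 10), Benjamini-Hochberg adjustment across every gene tested, with an adjusted p of 0.05 as threshold. The SE is the log2 fold change divided by the root of F. The 12 untreated libraries were fitted together, each GSKJ4 comparison on its 6 libraries and interactions on 18. Since p-values rest on 3 replicates a group, they measure the spread among these cultures. Alternatives were DESeq2 1.42.0, RLE and upper-quartile scaling, 2 other filters, a replicate block, one fit over 21 libraries and leaving out each library. Leaving out replicate 1 of every group was added after seeing the data. Log2 CPM used a prior count of 2. On simulated counts for GSKJ4 at D4H8 (16295 genes), 92% of changes of 1 and 100% of changes of 2 on the log2 scale were recovered. For the interaction of D6 with D4H8 (17423 genes) the shares were 40% and 100%. Of the simulated calls, 3.52% and 6.04% were false in these 2 comparisons. The simulation gave every gene the same spread and no replicate effect, and changed only genes with a mean of at least 100 counts. Recovery in the real libraries was not measured.

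The 9 genes and all lists were chosen with earlier results of these data known. From each list the 3 called genes with the greatest change and a mean of at least 100 counts could be named, and 1 such gene of the transduction list is not reported here. Similar genes were the 5 with the highest Pearson's r to Ptch1 and to Gli1. Deviations of same-numbered libraries from their group means correlated above 0.1 in all 3 pairs for D5 against D4H8 (0.14 to 0.31), D6 against D5 (0.14 to 0.31) and GSKJ4 at D6 (0.32 to 0.66), which was taken as pairing, and not for the other comparisons. No pair of libraries within a group agreed within sampling noise (lowest mean chi-square per gene 6.82). Precision is limited by counts for Gli2 and Boc at D6, with 20 to 76 reads a library.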

Additional observations from a re-analysis of the deposited data

Results flagged for a closer look

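The effect of GSKJ4 on 3 induced genes differed between stages by the interaction test of edgeR on 18 libraries. For Olig2 the log2 effect at D5 exceeded that at D4H8 by 3.34 ± 0.63, edgeR adjusted p = 0.0265, and the effect at D6 exceeded it by 4.28 ± 0.69, edgeR adjusted p = 0.00539. Olig2 had 11.3 to 20.8 FPKM with GSKJ4 and 15.2 to 27.8 without at D5, and 0.750 to 2.20 and 0.510 to 1.66 at D6. For Olig1 the effect at D6 exceeded that at D4H8 by 4.39 ± 0.87, edgeR adjusted p = 0.0228, with 0.430 to 0.670 FPKM and 0.200 to 0.870 FPKM at D6. For Nkx2-9 the same difference was 3.18 ± 0.61, edgeR adjusted p = 0.0205, with 1.17 to 1.89 FPKM and 0.680 to 1.41 FPKM. At D6 each of the 3 genes had at most 2.2 FPKM in every library. The Olig2 difference between D5 and D4H8 lost its call without D4H8 replicate 1, any D5 library, or D5 GSKJ4 replicate 3 (3.06 to 3.49), that of Olig1 without D4H8 replicate 1, D6 replicate 1 or 3, or D6 GSKJ4 replicate 2 or 3 (4.04 to 4.34), and that of Nkx2-9 without D4H8 replicate 1, D6 replicate 1 or 2, or D6 GSKJ4 replicate 2 or 3 (2.80 to 3.15). Groups of 3 libraries were not searched for stray single values.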

How the results depend on the processing

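The counts of called hedgehog genes at the 4 stage steps moved by under 1.5 times in every alternative. With GSKJ4 at D4H8 the count was 2, and it was 4 by DESeq2, 5 with no filter on low counts and 0 to 5 when 1 library, or replicate 1 of both groups (chosen after seeing the data), was left out. For the interaction of D5 with D4H8 it was 0, and 1 with no filter (Hhip) or with the replicate block (Gli1). For D6 with D4H8 it was 0, and 1 (Cdon) by DESeq2, with upper-quartile scaling, with at least 10 counts in every library, with the replicate block and in one fit over 21 libraries, and 0 to 1 when 1 library was left out. The block gave 3 calls for GSKJ4 at D4H8 (Gli1, adjusted p = 0.00762, Hhip and Cdon). The labels state no shared origin of the replicate numbers for any comparison. For GSKJ4 at D4H8 the deviations of same-numbered libraries correlated at 0.44, 0.07 and 0.26, and replicate 2 missed the cut of 0.1. Beyond the calls given here the block changed no call of the 9 genes other than Gas1 from D4H8 to D5. The Boc calls at D5 and D6 and the Gli1 call at D6 were lost in one fit over 21 libraries, where all groups share a spread.

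All genes called with GSKJ4 at D4H8 numbered 644, and 2215 by DESeq2, 2287 with no filter, 2274 with the block, 2048 in one fit and 43 to 1746 without 1 library. At D5 they were 1 and 73 by DESeq2, 128 with no filter, 4 with the block and 9 in one fit, and at D6 0, 1 by DESeq2 and 257 with the block. From D4 to D4H8 they were 767, 1188 by DESeq2, 1319 with no filter, 422 in one fit and 350 to 743 without 1 library (350 without D4H8 replicate 1), and from D4H8 to D5 4861 and 3218 in one fit. For the interactions they were 45, 133 and 0, by DESeq2 247, 603 and 1, with no filter 351, 626 and 13, and with the block 321 and 880 for the first 2; with at least 10 counts in every library D6 with D4H8 gave 208. Without 1 library the first ran from 16 (without D4H8 replicate 1) to 172 (without D4H8 GSKJ4 replicate 1), and the second from 40 to 284 without these same libraries.

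Of 26 called effects of the 9 genes, 0 changed sign, and of 64 not called, 26 did in at least 1 alternative. Without 1 library the log2 change from D4 to D4H8 ran from -0.15 to 0.15 for Boc and from -0.048 to 0.22 for Gas1, that of Cdon from D4H8 to D5 from -0.095 to 0.0018, the GSKJ4 difference at D5 from -0.14 to 0.012 for Ptch1 and from -0.28 to 1.11 for Boc, and that at D6 from -0.11 to 0.67 for Gli2. The cause of the shifts in this section was not tested. The order of the 7 group means was the same in CPM as in FPKM for 4 of the 9 genes.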

Other observations

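Within a group, the lowest of the 3 values of a hedgehog gene often fell in replicate 1. At D6, 7 of the 9 genes were lowest in replicate 1 without GSKJ4 and 8 with it, and at D5 6 and 6. At D4 the number was 5, and at D4H8 it was 4 without GSKJ4 and 0 with it. Of all genes with a mean of at least 10 counts, 55.6%, 45.6% and 28.5% were lowest in replicate 1 of these 3 groups. Over 16590 genes with a mean of at least 10 counts, 51.6% were lowest in replicate 1 at D6, against 23.9% and 24.5% in replicates 2 and 3. The share lowest in replicate 1 was 49.4% at D6 with GSKJ4, 46.0% at D5 and 38.04% at D5 with GSKJ4, where replicate 2 was lowest for 41.4%. The D6 replicate 1 libraries also had the lowest cell-cycle sums, 56.8 FPKM without GSKJ4 and 53.9 FPKM with it, where the other 4 libraries had 122 to 146 FPKM. Their pluripotency sums were 12.2 and 14.8 FPKM, where the other 4 had 84.9 to 110 FPKM. Without replicate 1 of any group the 9 genes gave 7 calls from D4H8 to D5, 8 from D5 to D6 and 9 from D4 to D6. Which of these differences between libraries the hedgehog values follow was not tested.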
